A study of Mus musculus with 2 samples.

Results

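The cells described here are the Grem1 positive barcodes of the limb of the mouse embryo at stage E12.5 (days of development after mating). They were selected on their own counts: a barcode needed at least 500 detected genes, less than 10% of its unique molecular identifiers (UMIs, each standing for 1 captured RNA molecule) on mitochondrial genes, 1 or more Grem1 UMIs, and 0 UMIs of Myog, Cdh5, Ptprc and Gdf5, which mark differentiating muscle, endothelium, blood leukocytes and joint interzone. Of 12941 deposited E12.5 barcodes 12271 passed the gene and mitochondrial limits, and 649 of these were members (5.29%, exact binomial 95% interval 4.90 to 5.70%). The series holds 18721 deposited barcodes in all. Grem1 and the 4 gate genes chose the members, so their levels are given as a description only. The other values compare barcodes within 1 library, and every interval in the text covers counting error only, not the spread between embryos. The study sequenced limb cells of wild-type C57Bl/6 embryos at E12.5 and E15.5, taken from forelimbs and hindlimbs together and labelled as limb skeletal muscle, in 1 droplet library per age made with a kit that reads the 3′ end of each RNA. Cells were freed mechanically and with trypsin, and 20000 cells were loaded per library. The number and sex of the embryos are not given in the sources used here. With 1 library per age no difference between ages or between groups of cells could be tested over samples.

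Grem1 encodes gremlin, a secreted protein that binds bone morphogenetic proteins (BMPs) and keeps them from their receptors. In the early limb bud, Grem1 in the posterior and distal mesenchyme forms part of a feedback loop in which Sonic hedgehog from the mesenchyme and fibroblast growth factors from the overlying ectoderm sustain each other while gremlin holds BMP activity down. Later in limb development the gene is known from mesenchyme between and beside the cartilage condensations, where BMP signalling drives cartilage formation and the death of interdigital cells.

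Grem1 (ENSMUSG00000074934, chr2:113746164-113758646, minus strand, GRCm38) had 1193 UMIs among the members, 632 per 1000000 of their 1886927 UMIs (written CPM from here on; interval 597 to 669). Most members carried a single molecule: 410 had 1 Grem1 UMI (63.2%), 117 had 2 (18.03%), 122 had 3 or more (18.8%), and the highest had 16. The median number of UMIs per barcode was alike in those 3 classes, at 2572, 2574 and 2549.5. Within the last class it was 2450.5 with 3 Grem1 UMIs, 2074 with 4 and 2981 with 5. It was 4294 in the 3 members with 12 and 4545 in the 1 with 16. Over all members it was 2573, against 2441.5 in the 11558 other kept barcodes with 0 Grem1 UMIs and 2394 in the 10062 of these that also had 0 UMIs of the 4 gate genes, called the same-gate barcodes from here on. After each barcode was thinned to 1500 UMIs, 3.80% of the barcodes deep enough were members. The limits on genes and mitochondrial share touched few Grem1 barcodes: 9 were not kept, the member with the fewest genes had 540 and the nearest barcode outside had 468, and the highest mitochondrial share in a member was 8.18% while the 1 Grem1 barcode over that limit had 14.9%. A further 64 kept Grem1 barcodes carried a gate gene, 45 of them Gdf5, 12 Myog, 8 Cdh5 and 1 Ptprc. The E12.5 and E15.5 libraries shared 17 barcode sequences, 1 of them a member's.

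The tissue was labelled muscle, but muscle lineage-like clusters held 647 of the kept barcodes (5.27%). The members carried RNA of limb mesenchyme. The homeobox gene Prrx1 stood at 832 CPM, the receptor gene Pdgfra at 563 and the bHLH gene Twist1 at 164. The other barcodes without Grem1 had 787, 332 and 107 CPM. Barcodes with a gate gene are among those others, so these gaps are partly set by the rule. Against the same-gate barcodes Pdgfra was 1.5-fold or more higher, and Prrx1 and Twist1 were not. Clusters of all kept E12.5 barcodes, built without Grem1 and the 4 gate genes, showed where the members lay. Cluster 3, connective tissue-like and led by Kera, Dcn, Egfl6, Postn and Dkk2, held 286 of the 649 members (44.1%) although it held 2238 of the 12271 kept barcodes, and 77 of the 122 members with 3 or more Grem1 UMIs. In it 9.26% of thinned barcodes had a Grem1 UMI (interval 8.07 to 10.6%; 13.4% before thinning), and Grem1 stood at 100.3 CPM. The dividing cluster 1, led by Ube2c and Cenpf, had 3.01% (2.38 to 3.75%; 5.77% before thinning) and held 127 members; 33.4% of its barcodes were scored as likely doublets. Cluster 2, led by Cxcl14, Crabp1 and Ednra, had 3.55% (4.303% before thinning) and the joint interzone-like cluster 6 had 3.76% (6.14%). Cluster 5, led by Gm42418 and Wnt4, had 3.81% (3.01% before thinning) at a median depth of 1291 UMIs, below that of every other cluster with 40 or more members. Grem1 was thus seen across the mesenchyme, with cluster 3 above the other clusters named so far. The chondrocyte-like cluster 4 had 1.28% (0.784 to 1.97%; 2.63% before thinning). That range overlaps the one in the muscle lineage-like cluster 7, which should lack the gene. Cluster 7 had 0.455% (0.0551 to 1.63%), and 2.02% before thinning at a median depth of 3902 UMIs. Grem1 stood at 12.4 CPM in cluster 4, against 6.15 and 6.64 in the muscle lineage-like clusters 7 and 8. It stood at 1.33 CPM in the endothelial-like and 0 in the immune-like cluster. Whether the chondrocyte-like share lies above background was not tested. In the endothelial-like cluster 1 of 155 barcodes had a Grem1 UMI and in the immune-like cluster 0 of 63 did, which allows a share of up to 4.76%. At a finer resolution 1 cluster of 734 barcodes, led by Kera, Dcn, Grem1, Tmeff2, Cbln2 and Cited1, reached 20.7% (16.5% thinned, 225 CPM) and held 147 members and 54 of those with 3 or more UMIs.

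**Figure D1:**
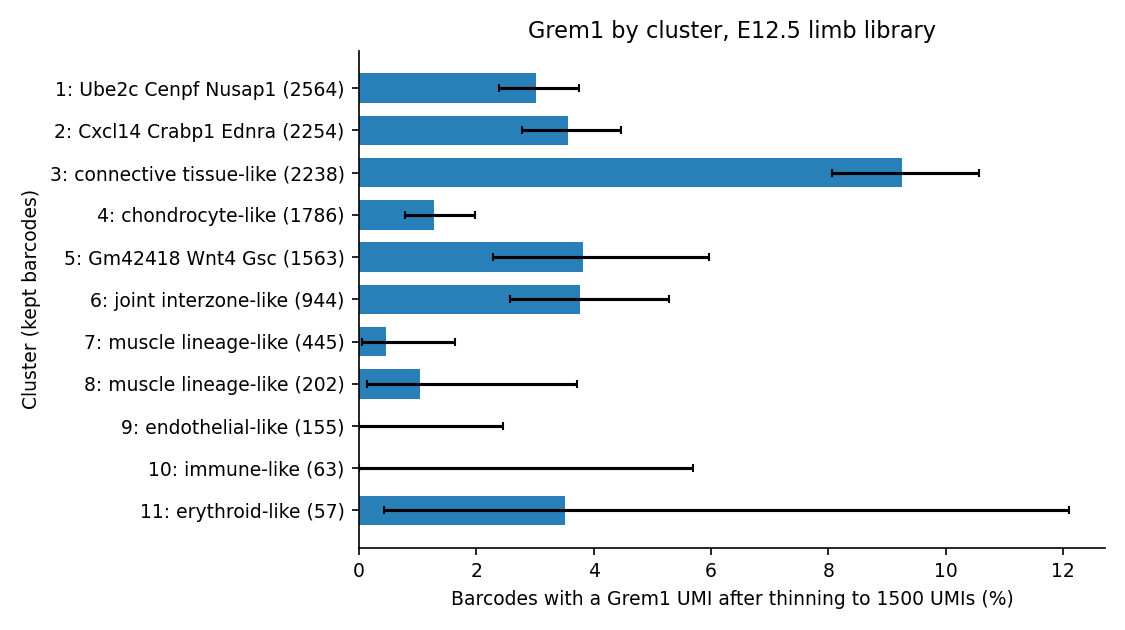
Share of barcodes with a Grem1 UMI in each E12.5 cluster after thinning to 1500 UMIs per barcode, in percent, with exact binomial 95% intervals. Cluster 3 is highest at 9.26%, and the muscle lineage-like clusters 7 and 8 and the endothelial-like and immune-like clusters are lowest.

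Against all other kept barcodes without Grem1, 269 of 7380 genes with at least 20 CPM on either side were 1.5-fold or more higher in the members (3.64%) and 167 were that much lower (2.26%). Against the same-gate barcodes 245 of 7344 were higher (3.34%) and 131 lower (1.78%), and the median log2 ratio of all genes was 0.02 in both comparisons. The 15 genes with the highest ratios, ranked with 5 CPM added to both sides among genes at 50 CPM or more in members, were led by Alx1, a homeobox gene known from craniofacial and limb mesenchyme. Alx1 (ENSMUSG00000036602, chr10:102998707-103030215, minus strand) stood at 82.1 CPM in members (interval 69.7 to 96.1), 6.01 in all other barcodes and 6.49 in the same-gate barcodes, a log2 ratio of 3.77 to the others (3.46 to 4.08). It was seen in 100 of 649 members (15.4%) and in 1.45% of the others, and after thinning in 9.81% of members (interval 7.54 to 12.502%) and 0.744% of the others. Endothelial-like and immune-like barcodes, which should lack these genes and give the level of background, had 0 with Alx1 among 212 thinned barcodes, which allows up to 1.42% (median depth before thinning 4391 UMIs).

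Kera, which encodes keratocan, a keratan sulfate proteoglycan of the small leucine-rich family, was next. It stood at 214 CPM in members (interval 194 to 236), 26.9 in the others and 31.0 in the same-gate barcodes, with a log2 ratio of 2.99 to the others and 2.79 to the same gate. After thinning it was seen in 19.3% of members (interval 16.2 to 22.7%), 3.08% of the others and 0.472% of endothelial-like and immune-like barcodes. Dcn (decorin) and Lum (lumican), proteoglycans of the same family, were higher as well. Dcn had 189 CPM in the members and 56.6 CPM in the same-gate barcodes (log2 ratio 1.74, 1.57 to 1.91). Lum had 302 CPM in the members and 127 CPM in the same-gate barcodes (log2 ratio 1.25, 1.12 to 1.37). After thinning Dcn was seen in 20.3% of members (interval 17.1 to 23.8%) and Lum in 30.6% of members (interval 26.9 to 34.5%), against 0.943 and 2.36% of endothelial-like and immune-like barcodes. Lox, the lysyl oxidase that cross-links collagen and elastin, had 145 against 50.9 CPM (log2 ratio 1.51).

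Several of the 15 encode signalling, membrane or calcium-binding proteins. Grin3a, a subunit of NMDA glutamate receptors, had 86.4 CPM in the members and 16.2 CPM in the same-gate barcodes (log2 ratio 2.42, 2.15 to 2.68), and it was seen after thinning in 10.8% of members (interval 8.44 to 13.6%) against 0.943% of endothelial-like and immune-like barcodes. Calb2, the calcium-binding protein calretinin, had 67.8 CPM in the members and 21.1 CPM in the same-gate barcodes (log2 ratio 1.68, 1.40 to 1.96). Dkk2, a secreted modulator of Wnt signalling, had 233 CPM in the members and 97.2 CPM in the same-gate barcodes (log2 ratio 1.26, 1.11 to 1.41). Tmeff2, a transmembrane protein with follistatin domains, had 55.1 against 10.4 CPM (log2 ratio 2.41), and the protocadherin Pcdh19 had 63.6 against 20.6 CPM (log2 ratio 1.63). The apolipoprotein Apod had 56.7 against 19.9 CPM (log2 ratio 1.51). Tmtc2, an endoplasmic reticulum protein, had 223 against 76.2 CPM (log2 ratio 1.55), Arhgap20 93.8 against 33.8 CPM (log2 ratio 1.47), and Eps8, an actin regulator, 67.8 against 24.8 CPM (log2 ratio 1.45). Kctd12 had 456 against 186 CPM (log2 ratio 1.29), and a UMI of it was also found in 21.7% of thinned endothelial-like and immune-like barcodes against 43.0% of members. The same 10 genes led both the comparison with all others and that with the same gate. All 15 were past 1.5-fold in both. After thinning to 1500 UMIs the log2 ratio to all others went from 1.87 to 0.87 for Calb2 and from 1.61 to 0.79 for Arhgap20, and with 2 or more Grem1 UMIs that of Calb2 was 1.14.

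**Figure D2:**
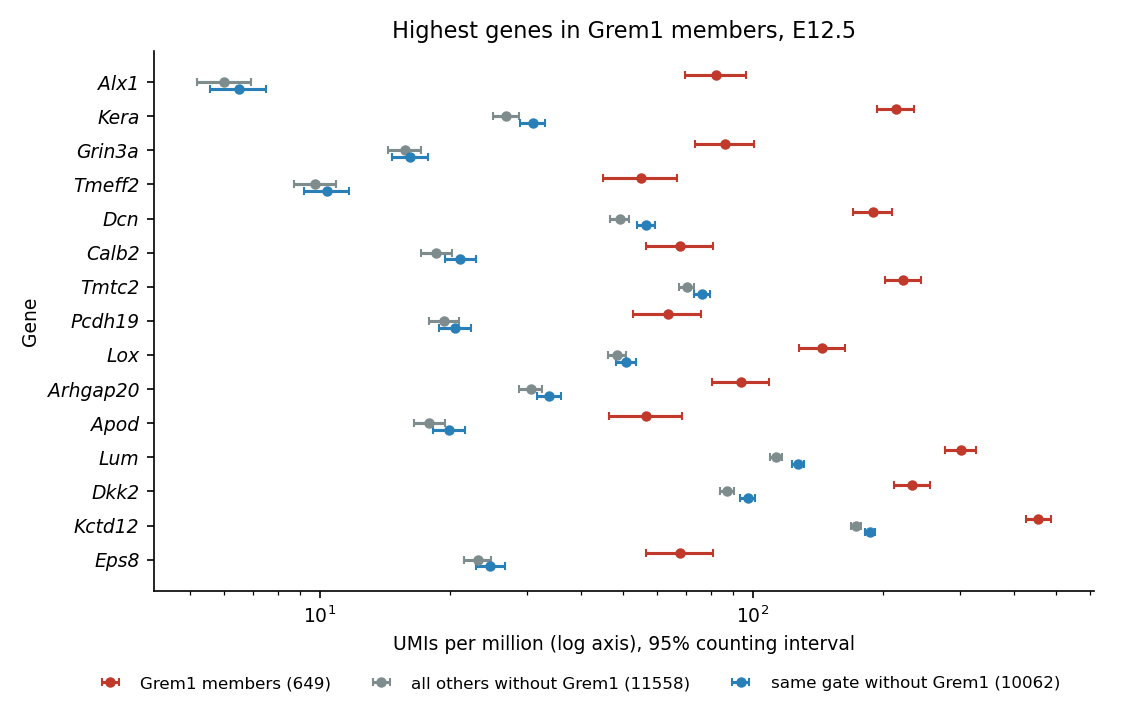
Levels of the 15 genes with the highest ratios in members, in all other kept E12.5 barcodes without Grem1 and in the same-gate barcodes, in CPM on a log axis with exact Poisson 95% intervals. The members lie above both other groups for every gene, from Kctd12 at 456 CPM down to Tmeff2 at 55.1 CPM, and Alx1 has the widest gap.

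The same counts can be read from the other side. These genes were chosen as the highest in Grem1 barcodes, so a higher Grem1 share with them was set in advance. The shares are a description only. Among gate-negative barcodes with an Alx1 UMI, 100 of 250 also had Grem1 (40%, interval 33.9 to 46.4%), against 5.25% of those without Alx1. After thinning the shares were 34.1% (43 of 126; 25.9 to 43.1%) and 3.80%. With Kera the thinned share was 19.0% against 3.53% without it, with Grin3a 17.6% against 3.82%, and with Calb2 7.98% against 4.13%. Most Grem1 barcodes had no Alx1 UMI at this depth, and 150 of the 250 barcodes with Alx1 had no Grem1 UMI. Of the 176 Alx1 UMIs in the same-gate barcodes 65 lay in the chondrocyte-like cluster 4. There Alx1 had 18.5 CPM in members and 16.4 in the same-gate barcodes.

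Of the 15 genes, Dcn, Lum, Kera, Alx1 and Tmtc2 lie on 1 stretch of chromosome 10, chr10:97479609-105574451 (8.09 Mb). Its ends were set by these 5 genes after their values were seen, so all 5 lie in it by construction. Within it 5 of 10 tested genes were 1.5-fold or more higher in members than in all others, while Atp2b1, Poc1b, Dusp6, Tmtc3 and Cep290 were not. On the rest of chromosome 10 the count was 15 of 373 (4.02%). The higher share inside the stretch follows from how it was drawn, and nothing is read from it.

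The 250 bases before the start that RefSeq gives to Grem1 and to the 2 genes of that stretch with an entry in its promoter table (GRCm38.p6), Kera and Tmtc2, are shown for comparison, 5′ to 3′ on the gene's strand, with every CCAAT (or ATTGG, the same motif on the other strand) in capitals. Grem1 is at chr2:113758649-113758898 (minus strand), Kera at chr10:97606955-97607204 (plus strand) and Tmtc2 at chr10:105574480-105574729 (minus strand). The GENCODE model of Kera (chr10:97606879-97613692) starts before the Kera stretch, which therefore lies inside that longer model.
Grem1: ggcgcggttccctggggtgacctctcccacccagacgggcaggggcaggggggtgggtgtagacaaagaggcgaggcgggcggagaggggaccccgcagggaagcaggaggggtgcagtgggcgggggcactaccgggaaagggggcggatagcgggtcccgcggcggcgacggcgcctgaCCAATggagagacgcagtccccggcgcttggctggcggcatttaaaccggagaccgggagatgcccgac
Kera: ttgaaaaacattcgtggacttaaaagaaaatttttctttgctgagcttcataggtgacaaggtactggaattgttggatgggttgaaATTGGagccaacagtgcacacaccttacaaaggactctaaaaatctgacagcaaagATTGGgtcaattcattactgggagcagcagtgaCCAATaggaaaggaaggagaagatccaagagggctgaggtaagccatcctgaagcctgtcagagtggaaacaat
Tmtc2: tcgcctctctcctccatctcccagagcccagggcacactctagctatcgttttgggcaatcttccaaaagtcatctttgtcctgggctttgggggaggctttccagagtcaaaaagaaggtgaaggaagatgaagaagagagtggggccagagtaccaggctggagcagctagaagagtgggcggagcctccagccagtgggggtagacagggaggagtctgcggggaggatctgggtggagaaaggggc
The 3 stretches differ in base content. That of Grem1 is 72.0% G and C, and 93.1% of the 32851 RefSeq promoters of this length have less. That of Kera is 42.4% G and C and holds 3 CCAAT matches over both strands, as 2.79% of promoters do or exceed, and that of Tmtc2 is 57.2% G and C with 0 matches. Of the 15 genes 8 had an entry (Kera, Tmeff2, Tmtc2, Pcdh19, Arhgap20, Apod, Dkk2 and Kctd12). Among these, 4 held CCAAT (33.8% of all promoters), 2 held TAAT, the core read by homeodomain proteins (54.9% of all), and 0 held TAATNNNATTA, the paired form that Alx proteins are known to bind (0.463% of all), each searched on both strands; every TAATNNNATTA also holds TAAT.

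Genes of the BMP pathway were described from lists. For these and the lists that follow, 3.34% of all genes tested against the same-gate barcodes were higher and 1.78% lower. A count of 1 gene in a list is not read as a result about that list. Of 6 measured ligands 2 were higher in members than in the same-gate barcodes and 1 lower (median log2 ratio 0.23). Bmp3, known as a BMP that opposes the others, had 34.98 CPM in the members and 8.34 CPM in the same-gate barcodes (log2 ratio 2.07, 1.65 to 2.47). Bmp4 had 69.4 CPM in the members and 41.8 CPM in the same-gate barcodes (log2 ratio 0.73, 0.46 to 0.99), and Gdf10, a relative of Bmp3, had 13.2 CPM in the members and 34.7 CPM in the same-gate barcodes (log2 ratio -1.39, -2.02 to -0.82). Bmp2 had 76.3 against 58.1 CPM (log2 ratio 0.39), and stayed inside 1.5-fold. Of 8 other antagonists and modulators, Sostdc1 was higher with 21.7 against 13.8 CPM (log2 ratio 0.66), and Nog, the antagonist noggin, was lower with 13.8 against 24.5 CPM (log2 ratio -0.83), as was Bmper with 16.4 against 25.5 CPM (log2 ratio -0.64). None of 9 receptors and Smads passed 1.5-fold. Among 6 genes known to respond to BMP signalling Dlx5 was lower, at 10.1 against 24.4 CPM (log2 ratio -1.28), and Id1 had 344 against 397 CPM (log2 ratio -0.21), Id2 145 against 179 CPM (log2 ratio -0.31) and Id3 449 against 493 CPM (log2 ratio -0.13). Members thus carried more Bmp3 and Bmp4 RNA, and of the response genes 1 of 6 was lower and 0 were higher. Levels of different genes are not compared with each other here, since the counts come from the 3′ end and depend on the gene.

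Of the hedgehog pathway, Ptch1, receptor and known target of hedgehog signalling, was the 1 of 8 measured genes past 1.5-fold, with 167 CPM in the members and 324 CPM in the same-gate barcodes (log2 ratio -0.95, -1.12 to -0.79). Gli1, another known target, had 55.6 against 79.5 CPM (log2 ratio -0.51), and Shh had 0 UMIs in the members. Among 8 measured genes of the FGF pathway, Spry1 and Spry2, feedback inhibitors that FGF signalling induces, were higher, with 40.8 against 21.9 CPM (log2 ratio 0.90) and 65.2 against 42.3 CPM (log2 ratio 0.62). The receptor genes Fgfr2 and Fgfr3 and the ETS factor gene Etv5 were lower, with 43.5 against 73.8 CPM (log2 ratio -0.76), 14.8 against 32.2 CPM (log2 ratio -1.12) and 30.2 against 46.1 CPM (log2 ratio -0.61). Fmn1, the neighbour of Grem1 whose introns are known to hold limb enhancers of Grem1, had 21 UMIs in members, 11.1 against 4.35 CPM (log2 ratio 1.35, 0.61 to 2.03), under the 20 CPM needed to be counted. Arhgap11a, the 1 neighbour above that level, had 58.8 against 60.5 CPM (log2 ratio -0.04).

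Over the members as a whole most position genes differed little. Their sums by number of Grem1 UMIs are given with the other lists. None of 8 proximal genes and none of 5 middle limb Hox genes passed 1.5-fold, and the distal genes Hoxa13 and Hoxd13 had 1 UMI each in the members. In the list of T-box and anterior-posterior genes Asb4 was lower, with 91.2 against 182 CPM, and Shox2, a homeobox gene of the proximal limb, had 892 against 669 CPM (log2 ratio 0.42). Among 7 measured retinoic acid genes the binding protein gene Crabp1 was higher, with 269.8 against 177 CPM (log2 ratio 0.61), and Cyp26b1, which degrades retinoic acid, was lower, with 30.2 against 52.9 CPM (log2 ratio -0.81). Of 14 Wnt genes 4 were higher and 2 lower. The ligand gene Wnt11 had 37.1 CPM in the members and 17.4 CPM in the same-gate barcodes (log2 ratio 1.09, 0.71 to 1.46), Axin2, a known target of Wnt signalling, had 72.1 against 44.6 CPM (log2 ratio 0.69), and the inhibitor gene Wif1 had 53.0 against 28.4 CPM (log2 ratio 0.90); Dkk2 is given with the leading genes. Sfrp2 and Lgr4 were lower, with 109 against 193 CPM (log2 ratio -0.83) and 35.5 against 55.9 CPM (log2 ratio -0.65).

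Among 22 measured transcription factors of limb mesenchyme 3 were higher and 2 lower. Osr1, known from muscle connective tissue and joints, had 145 CPM in the members and 63.7 CPM in the same-gate barcodes (log2 ratio 1.19, 1.000 to 1.37). Ebf1 had 383 against 224 CPM (log2 ratio 0.77) and Zfhx4 1147 against 710.3 CPM (log2 ratio 0.69), while Foxc1 had 42.4 against 82.4 CPM (log2 ratio -0.96) and Maf 43.5 against 69.7 CPM (log2 ratio -0.68). Prrx1, which marks limb mesenchyme as a whole, stayed within 1.5-fold, with 832 against 865 CPM (log2 ratio -0.06). Of 18 guidance and migration genes 5 were higher and 1 lower. They included the ephrin gene Efna5, with 127 against 64.5 CPM (log2 ratio 0.98), its receptor gene Epha3, with 109 against 48.5 CPM (log2 ratio 1.16), and Sema3a, Slit2 and Robo1, at log2 ratios of 0.75, 0.69 and 0.85, and the netrin receptor gene Unc5c was lower, at -0.62.

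Fibrous matrix and cartilage genes lay on opposite sides. Of 24 measured matrix genes 13 were higher in members than in the same-gate barcodes and 0 lower, with a median log2 ratio of 0.69 beside 0.02 for all genes. Col1a1, the main fibrillar collagen, had 925 CPM in the members and 448 CPM in the same-gate barcodes (log2 ratio 1.05, 0.97 to 1.12). Postn, periostin, had 144 CPM in the members and 69.2 CPM in the same-gate barcodes (log2 ratio 1.06, 0.87 to 1.24). Vcan, versican, was on the lower side within 1.5-fold, with 1163 against 1713 CPM (log2 ratio -0.56). Of 15 chondrocyte genes 0 were higher and 14 lower, with a median log2 ratio of -0.85. Over all tested genes 3.34% were higher and 1.78% lower. The link protein gene Hapln1 had 32.9 CPM in the members and 96.9 CPM in the same-gate barcodes (log2 ratio -1.56, -1.95 to -1.20), aggrecan (Acan) had 56.7 CPM in the members and 137 CPM in the same-gate barcodes (log2 ratio -1.27, -1.57 to -0.997), and Matn1 and Col9a1 had 51.4 against 117 CPM (log2 ratio -1.18) and 189 against 374 CPM (log2 ratio -0.98). Runx2, the osteoblast and chondrocyte regulator, had 63.6 against 129 CPM (log2 ratio -1.02), and the bone genes Ibsp, Spp1 and Bglap were at 0 UMIs in the members. Of 12 connective tissue markers 7 were higher and 0 lower. Among these 7, Col1a1, Col1a2, Col3a1, Dcn and Lum are also among the 13 higher matrix genes, so the counts overlap. Of 6 measured tenocyte markers 2 were higher, Kera and Thbs4. Thbs4 had 40.3 CPM in the members and 8.23 CPM in the same-gate barcodes (log2 ratio 2.29, 1.90 to 2.67). All 25 proliferation genes stayed within 1.5-fold (median -0.12), as did 9 stress and dissociation genes. The remaining lowest genes against the same gate were Pcp4, Mia, Sorbs2 and Thsd4, with log2 ratios of -1.56, -1.20, -1.22 and -1.15.

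**Figure D3:**
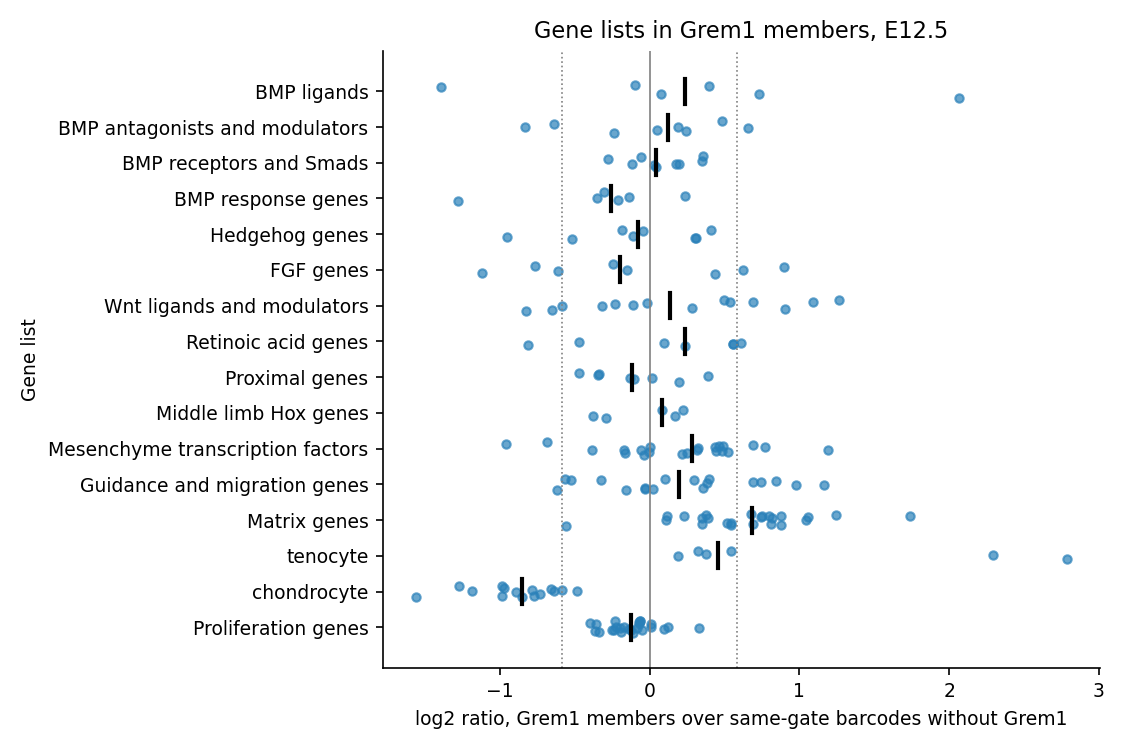
Log2 ratio of members to same-gate barcodes for every measured gene of each list (dots), with the median of the list (black bar) and the 1.5-fold limits (dotted lines). The matrix genes lie to the higher side around 0.69 and the chondrocyte genes to the lower side around -0.85, while BMP receptors, Hox genes and proliferation genes lie near 0.

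Against all other barcodes, the lowest genes were those of muscle, led by Actc1, Mylpf, Myl1, Myh3, Ttn, Neb, Tnnt1, Rbm24, Acta2 and Mef2c. The gate on Myog removes these cells from the members by rule, and nothing is read from this. With the same gate on both sides the gap was smaller: Actc1 had 18.02 CPM in members, 206 in all others and 23.6 in the same-gate barcodes, and Ttn had 81.6, 546 and 99.0. Neb, Tnnt1 and Mef2c, the last a factor of muscle and also of cartilage, stayed past 1.5-fold lower, with 15.9 against 26.2 CPM (log2 ratio -0.72), 38.7 against 58.6 CPM (log2 ratio -0.60) and 74.2 against 137 CPM (log2 ratio -0.89). Endothelial and immune markers were low in the members. The 9 endothelial markers summed to 24.4 CPM against 23.0 in the same-gate barcodes, with Esam and Flt1 at 0, and the 9 immune markers to 3.71 against 17.6, with C1qc, Lyz2 and Cx3cr1 at 0. The erythroid markers were lower, 7 of 7 measured past 1.5-fold, and summed to 1272 CPM (interval 1222 to 1324) against 2722. A few barcodes carried most of this RNA: 2 members of the erythroid-like cluster held 85.3% of the members' haemoglobin UMIs. Without that cluster, left out after the data were seen, haemoglobin stood at 187 CPM in members (168 to 207) and 342 in the same-gate barcodes. Nefm, a neurofilament gene and the 1 measured neuron marker, had 26.5 against 10.4 CPM (log2 ratio 1.34), and the smooth muscle gene Tagln had 53.5 against 31.3 CPM (log2 ratio 0.77). Barcodes scored as likely doublets made up 12.6% of members and 10.3% of kept barcodes, and their part in these results was measured by leaving them out: the counts stayed within 1.5 times.

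The members were not alike among themselves, and the levels of many genes named here differed with the number of Grem1 molecules. The classes also differed in sex and limb. Of assigned members 25.3% were male with 1 Grem1 UMI and 46.3% with 3 or more. The log2 ratio of the forelimb gene Tbx5 to the hindlimb gene Pitx1 was -1.53 and 0.71 in these classes. Grem1 count, sex, limb and embryo therefore cannot be told apart here. Alx1 stood at 6.49 CPM in same-gate barcodes with 0 Grem1 UMIs, 38.1 with 1, 104 with 2 and 200.3 with 3 or more, so that the last class was above the class with 1 UMI by a log2 ratio of 2.39 (1.84 to 2.96). Over the same 4 classes Kera had 31.0, 139.9, 287 and 382 CPM, Grin3a 16.2, 45.8, 97.6 and 203 CPM and Dcn 56.6, 126, 250.1 and 332 CPM. Bmp3 had 8.34, 20.3, 42.7 and 73.8 CPM, Bmp4 41.8, 46.6, 91.5 and 121 CPM, and Thbs4 8.23, 22.9, 30.5 and 103 CPM. The levels of these genes climbed from class to class. Alx1, Kera, Grin3a and Dcn were chosen as highest over all members, with the upper classes among them. With 1 UMI Alx1 and Grin3a were under the 50 CPM asked of the leading genes. Their choice thus favoured such a climb, which is a description only. Ebf1 had 224, 260.2, 424 and 728 CPM and Spry1 21.9, 26.3, 51.9 and 76.4 CPM. The level of Postn was highest by a wide step in the class with 3 or more, with 69.2, 101, 119 and 300.5 CPM, and the Wnt potentiator gene Rspo3 had 52.7, 50.01, 82.4 and 153 CPM. Calb2 ran in the opposite order within the members, with 21.1, 83.9, 58.0 and 26.4 CPM, so its highest level was in the class with 1 UMI, and the last class was below it by a log2 ratio of -1.67 (-2.77 to -0.73). Cartilage genes were lower with 2 and with 3 or more Grem1 UMIs than with 0 or 1: Acan had 137, 73.7, 30.5 and 26.4 CPM and Matn1 117, 74.6, 12.2 and 13.2 CPM.

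Summed over lists, chondrocyte genes had 5399, 3831, 1964 and 1779 CPM over the classes with 0, 1, 2 and 3 or more Grem1 UMIs, and matrix genes 7721, 10399, 11783 and 12080.5 CPM. BMP ligands had 204, 208, 287 and 377 CPM, and BMP response genes 1247, 1172, 936 and 925 CPM. Ligand sums were thus alike with 0 and 1 UMI and higher from 2 on, and response sums were lower with 2 and with 3 or more. Proliferation genes had 4379, 3941, 3605 and 4713 CPM, with no steady order. Among position genes, the proximal list had 791, 805, 775 and 546 CPM, and the middle limb Hox list 243, 266, 247 and 248 CPM. The hindlimb list had 398, 426, 314 and 198 CPM, and the forelimb gene Tbx5 81.0, 93.2, 137 and 163 CPM. The erythroid markers had 2722, 1373, 2132 and 216 CPM, and the 2 haemoglobin-rich members named with those markers lie behind most of the RNA in the members. The part of haemoglobin in the other differences was not tested.

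**Figure D4:**
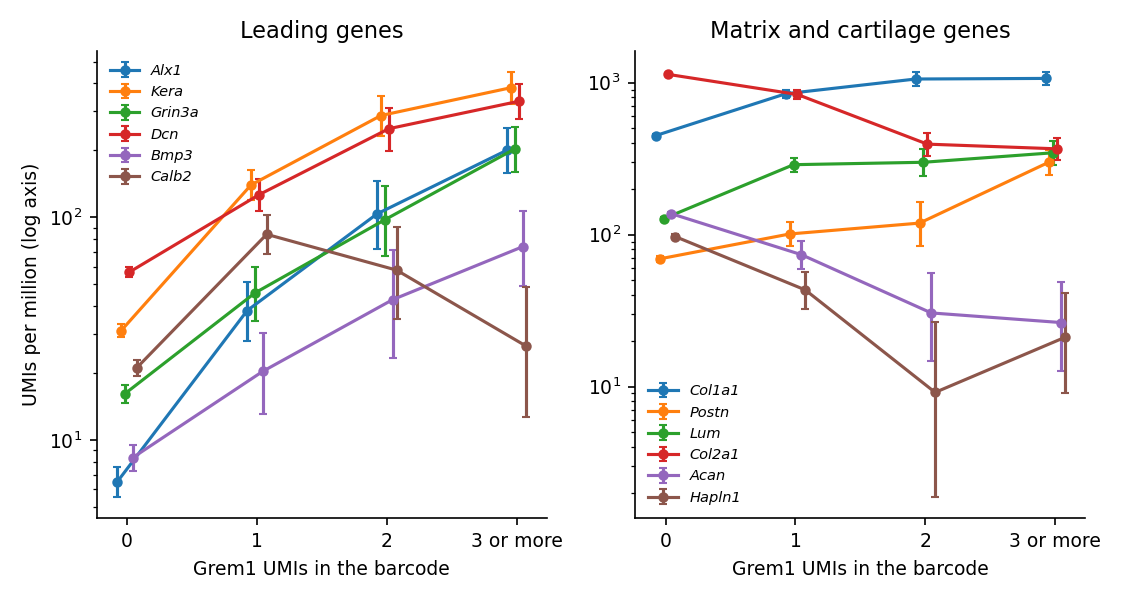
Levels of 12 genes in E12.5 barcodes with 0 (same gate), 1, 2 and 3 or more Grem1 UMIs, in CPM on a log axis with exact Poisson 95% intervals. Alx1, Kera, Grin3a, Dcn and Bmp3 climb through the classes while Calb2 peaks at 1 UMI. In the right panel Postn has its own highest level at 3 or more UMIs, where Acan and Hapln1 are low.

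Since the members gathered in cluster 3, each cluster was also read by itself, a comparison added after the data were seen. Within cluster 3 (286 members, 1844 same-gate barcodes) Alx1 had 116 against 7.03 CPM (log2 ratio 4.04, 3.48 to 4.64) and Kera 368 against 96.7 CPM (log2 ratio 1.93, 1.72 to 2.14). Grin3a had 129 against 20.3 CPM (log2 ratio 2.66, 2.26 to 3.07), Thbs4 63.0 against 19.0 CPM (log2 ratio 1.73, 1.21 to 2.23), Bmp3 54.2 against 19.0 CPM (log2 ratio 1.51, 0.96 to 2.04), and Dcn 318 against 167 CPM (log2 ratio 0.92, 0.72 to 1.13). These genes were therefore higher in the members also among barcodes of the same cluster. Lum and Dkk2 had smaller log2 ratios there, 0.61 and 0.49, and 1 gene of the chondrocyte list was 1.5-fold or more lower. Acan had 12.6 against 10.1 CPM (log2 ratio 0.32, -0.82 to 1.31) and Col9a1 54.2 against 52.8 CPM (log2 ratio 0.04, -0.46 to 0.51). In the dividing cluster 1 (127 members) Alx1 had 82.1 against 4.79 CPM (log2 ratio 4.10, 3.47 to 4.73) and Kera 148 against 24.6 CPM (log2 ratio 2.59, 2.21 to 2.96). The cartilage genes were lower in the members of cluster 1 as well: Hapln1 had 33.2 against 91.7 CPM (log2 ratio -1.47, -2.21 to -0.81) and Acan 69.8 against 124 CPM (log2 ratio -0.83, -1.32 to -0.37), and Matn1, Col9a1 and Runx2 had log2 ratios of -0.88, -0.72 and -0.84. In cluster 2 (96 members) Kera had 99.1 against 10.5 CPM (log2 ratio 3.24, 2.42 to 4.02), while Alx1 rested on 5 UMIs. In the chondrocyte-like cluster 4 (45 members) Alx1 had 2 UMIs in the members, 18.5 against 16.4 CPM. Kera had 0 there, which allows up to 34.1 CPM, against 3.03 CPM in the same-gate barcodes. In cluster 5 (43 members) Alx1 had 129 against 2.67 CPM (log2 ratio 5.59, 3.80 to 7.55) on 8 UMIs in the members. Kera had 32.2 against 16.5 CPM there on 2 UMIs. In the joint interzone-like cluster 6 the 43 members had 0 UMIs of Alx1, Kera and Calb2, which allows up to 39.9 CPM of each. The same-gate barcodes of that cluster had 2.27, 6.82 and 2.27 CPM, so these counts are too few to compare the groups. When the same-gate barcodes were weighted to the members' make-up by cluster, 144 genes were higher and 62 lower; of these 140 were among the 245 and 54 among the 131 of the unweighted comparison. The matrix genes past 1.5-fold dropped from 13 to 5 and the chondrocyte genes from 14 to 1. The clusters were built on these genes too, so a comparison within them is a description only.

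RNA of both limbs was found in the members. The forelimb gene Tbx5 had 115 CPM in members and 81.0 in the same-gate barcodes, and the hindlimb gene Pitx1 had 222 and 234. The log2 ratio of Tbx5 to Pitx1 UMIs was -1.53 in the same-gate barcodes, -1.53 in members with 1 Grem1 UMI, -0.46 with 2 and 0.71 with 3 or more (0.10 to 1.33), so members with more Grem1 held more Tbx5 RNA relative to Pitx1. Among gate-negative barcodes with Tbx5 and neither Pitx1 nor Tbx4, 122 of 1239 were members (9.85%, 8.24 to 11.6%; median depth 2371 UMIs). Among those with Pitx1 or Tbx4 and no Tbx5 the count was 196 of 3667 (5.34%, 4.64 to 6.12%; median depth 2692 UMIs). Alx1 and Kera were higher in members in both groups. Both were chosen as highest over these same members, so this is a description only. Alx1 had 97.6 against 5.42 CPM in the Tbx5 group and 32.9 against 3.68 in the other, and Kera had 223 against 30.1 and 140.5 against 33.0.

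The library holds embryos of both sexes, told apart per barcode by Xist and Y-linked UMIs. Of 399 members that could be assigned 129 were male (32.3%, 27.8 to 37.2%), against 22.2% of the same-gate barcodes, and the share was 25.3% in members with 1 Grem1 UMI and 46.3% in those with 3 or more. Male same-gate barcodes also had a higher Tbx5 to Pitx1 ratio (log2 -0.35) than female ones (-1.93), so sex, limb and embryo cannot be told apart. For Alx1 and Kera members stood above the same-gate barcodes in each sex. Both were chosen over these same members, so this is a description only. Alx1 had 132 against 15.49 CPM in males and 37.4 against 2.69 in females. Kera had 252 against 30.04 CPM in males and 144 against 30.8 in females. Over all members the haemoglobin genes summed to 1886 CPM in males, against 824 in male same-gate barcodes, and to 198 in females, against 1585, so the order was opposite in the sexes; 1 of the 2 erythroid-like members was assigned male. In members with 3 or more Grem1 UMIs they summed to 239 CPM in males and 230.2 in females.

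The same rule applied to the E15.5 library, which did not choose the members, took 212 of 4106 kept barcodes (5.16%, 4.51 to 5.88%), out of 5780 deposited. That library was much deeper, with a median of 9504.5 UMIs in its Grem1 barcodes, and after thinning to 1500 UMIs the share was 1.61%, against 3.80% at E12.5. Grem1 stood at 188 CPM in them. Alx1 again had the highest ratio of the genes named at E12.5, with 34.3 against 1.49 CPM (log2 ratio 4.53, 3.98 to 5.08), and Kera had 163 against 52.0 CPM (log2 ratio 1.65, 1.48 to 1.81). Of the 13 leading genes with enough UMIs to be tested there 5 were past 1.5-fold: Alx1, Kera, Tmeff2, Tmtc2 and Lum. Tmeff2, Tmtc2, Lum, Lox and Dcn had log2 ratios of 0.75, 0.77, 0.71, 0.56 and 0.38, and those of Eps8, Apod, Dkk2, Pcdh19, Kctd12 and Arhgap20 were 0.40, 0.25, 0.23, 0.22, 0.09 and -0.12. Grin3a rested on 12 UMIs and Calb2 on 7. The cartilage genes lay on the other side at E15.5: 14 of 15 chondrocyte genes were 1.5-fold or more higher in the Grem1 barcodes than in the same-gate barcodes, where 2.80% of all tested genes were, and their median log2 ratio was 1.26. This RNA was found in few of the Grem1 barcodes: UMIs of Matn1, Hapln1 and Acan were seen in 13, 23 and 39 of the 212. The chondrocyte-like cluster held 29 of the 212. At E15.5 14.4% of chondrocyte-like barcodes had a Grem1 UMI (6.08% thinned), against 2.63% (1.28% thinned) at E12.5. With the same-gate barcodes weighted by cluster 9 of the 15 were higher. The ages differ in library, depth and embryo, and the difference between them was not tested.

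**Figure D5:**
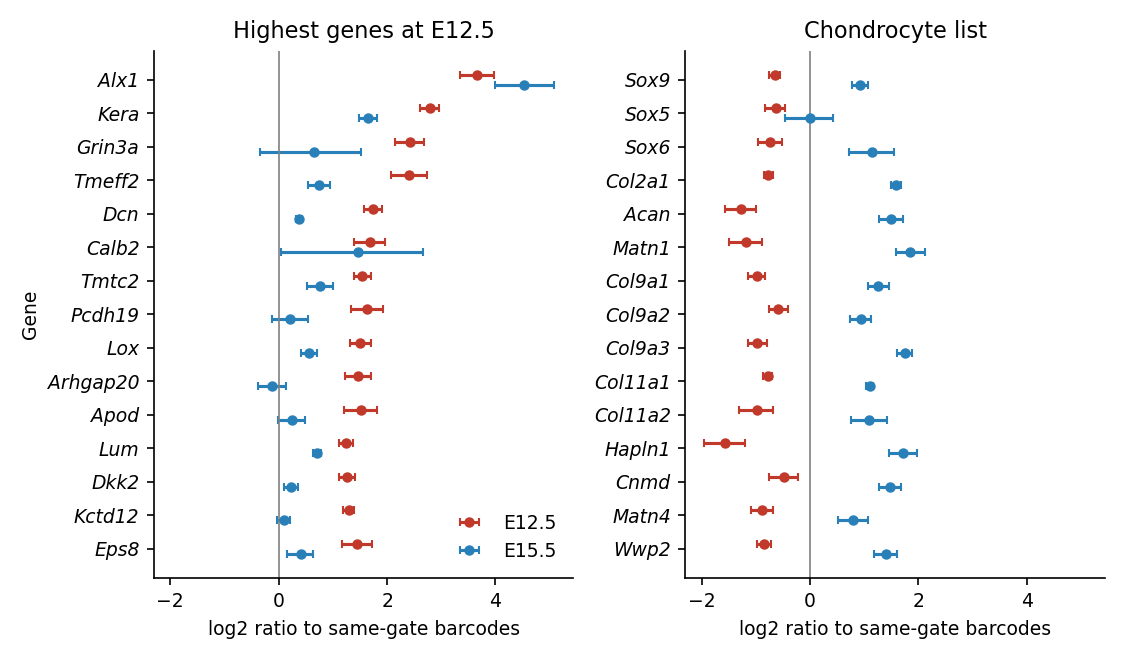
Log2 ratio of Grem1 barcodes to same-gate barcodes at E12.5 (red) and E15.5 (blue) for the 15 leading E12.5 genes and for the chondrocyte list, with exact 95% counting intervals. Alx1 and Kera are on the higher side at both ages, and the chondrocyte genes lie on the lower side at E12.5 and mostly on the higher side at E15.5.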

How the data were processed

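The data were UMI counts per gene and barcode from 10x Genomics 3′ libraries of limb cells, 1 per age. Counts were deposited by the authors unnormalised as filtered matrices, with Cell Ranger 4.0.0 per the file headers; mm10 and Seurat 4.3.0 are named in the submitters' processing notes. The members and gene lists were chosen with earlier results of these data known. Counts were summed per group and given as CPM with exact Poisson 95% intervals; ratios have exact conditional intervals and shares Clopper-Pearson intervals, all for counting error only. Genes with at least 20 CPM in either group were compared, without Grem1 and the gate genes. A gene counted as higher or lower past 1.5-fold, with no p-value, since cells of 1 library are not replicates. The text names the 15 highest genes against all others, the 10 highest against the same gate and the 10 lowest in each comparison, at 50 CPM or more, ranked with 5 CPM added, without ribosomal, mitochondrial, haemoglobin and sex-linked genes, the highest ones also keeping their direction after weighting by depth, plus members of the lists; genes named as cluster leaders or on chromosome 10 were chosen after their values were seen. Barcodes were clustered on 2000 variable genes, 30 principal components and 15 neighbours (leidenalg 0.10.2, igraph 0.11.9, scikit-learn 1.9.0), and named from marker lists. Doublets were not removed; barcodes resembling simulated doublets were left out as an alternative. Python 3.11.15, NumPy 2.4.6, pandas 2.3.3 and SciPy 1.17.1 were used, and the comparison was tested on simulated data. Gene coordinates are from GENCODE vM21, where 32158 of 32285 identifiers were found.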

Additional observations from a re-analysis of the deposited data

Results flagged for a closer look

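The cartilage genes lay on opposite sides of the same-gate barcodes at the 2 ages, with 1 library at each. Over the 15 chondrocyte genes the median log2 ratio of Grem1 barcodes was -0.85 in the younger library and 1.26 in the E15.5 library. Among the genes named at E12.5, Hapln1 went from -1.56 to 1.72, Acan from -1.27 to 1.498 and Matn1 from -1.18 to 1.85. Mia, which encodes a secreted cartilage protein, went from -1.20 to 1.10, Thsd4 from -1.15 to 0.97 and Col9a1 from -0.98 to 1.26. At E15.5 UMIs of Matn1, Hapln1 and Acan were seen in 13, 23 and 39 of the 212 Grem1 barcodes. The difference between the ages was not tested.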

How the results depend on the processing

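Values in 4 numbers are genes higher and lower than all others, then higher and lower than the same-gate barcodes (269, 167, 245 and 131 as reported). They were 667, 469, 627 and 427 with 2 or more Grem1 UMIs (members 1.95% of kept barcodes), 608, 471, 590 and 446 after thinning to 1500 UMIs (3.80%), and 974, 743, 892 and 708 in male cells (6.88%), where fewer UMIs stand behind each gene. A minimum of 50 CPM gave 135, 62, 121 and 55, a minimum of 1 CPM 1974, 1558, 2000 and 1267, and a 2-fold limit 74, 57, 66 and 27, with 4 matrix genes higher and 3 chondrocyte genes lower. In female cells members were 4.13%, and 257 and 226 genes were lower in the 2 comparisons. With at least 1000 genes members were 5.74%. Of alternatives chosen after seeing the data, weighting the same gate by cluster gave 144 higher and 62 lower genes, 5 matrix and 1 chondrocyte gene, and at E15.5 9 chondrocyte genes higher; within cluster 3 the values were 273 lower genes, 2 matrix and 1 chondrocyte gene, and Acan (0.32) and Col9a1 (0.038) changed sign as log2 ratios. Alx1 was seen in 15.4% of members without thinning, and Kera in 24.2% at 2500 UMIs and 27.1% without thinning. The thinned share in the cluster with most Grem1 was 6.27% at resolution 0.5 and 16.5% at 2.0. At E15.5 Grem1 barcodes were 2.31% with 2 or more UMIs and 1.61% after thinning. For the named genes 329 of 470 values under 14 settings stayed within counting error of the reported one and on the same side, 139 moved beyond it and 2 changed sign. The rest of the settings, leaving out likely doublets and scaling to the median gene among them, kept the 4 counts within 1.5 times. A like count does not mean the same genes. Of the 245 higher and 131 lower genes against the same gate, 222 and 116 were called again without likely doublets. The numbers were 171 and 80 in female cells, 205 and 90 after thinning, and 127 and 38 within cluster 3. Of the members 63.2% had 1 Grem1 UMI, so at this depth a barcode with 0 Grem1 UMIs may still express the gene, and differences between embryos could not be measured. No paired analysis was possible because each age has 1 library.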

Other observations

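The 64 kept E12.5 barcodes that had Grem1 together with a gate gene, which are no members, had the leading genes as well. Against the 1496 barcodes with a gate gene and no Grem1, Kera had 77.3 against 5.60 CPM (log2 ratio 3.79, 2.87 to 4.67), Grin3a 97.7 against 13.3 CPM (log2 ratio 2.87, 2.14 to 3.56) and Lum 151 against 39.8 CPM (log2 ratio 1.92, 1.37 to 2.43). Alx1 had 20.4 against 3.48 CPM (log2 ratio 2.55, 0.77 to 4.03) on 5 UMIs. All 15 leading genes had a positive log2 ratio there, and the intervals of Tmeff2 (0.90) and Lox (0.64) included 0. The comparison was added after the data were seen. Gdf5 was carried by 45 of the 64 barcodes with Grem1 and by 808 of the 1496 without. Myog was carried by 12 and 413 of them. The 2 sides thus differ in their make-up of cell types, and the part of this in the ratios was not tested.

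Grem1 shares in barcodes with a gate gene were 2.82% with Myog (12 of 425, median depth 3728 UMIs), 3.13% with Cdh5 (8 of 256, 3388 UMIs), 1.72% with Ptprc (1 of 58) and 5.28% with Gdf5 (45 of 853, 2461 UMIs). At E15.5 the share with Gdf5 was 10.2% (13 of 127, median depth 7785 UMIs). Depths differ between the ages.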
